A study of Mus musculus with 6 samples.

Results

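The genes described here are those of insulin-like growth factor 1 (Igf1), the acid-labile subunit (Igfals) and the IGF-binding proteins Igfbp1 to Igfbp7, taken by name, with the RefSeq accession in each probe set identifier giving the gene. All 9 were measured, by 11 probe sets, among 909 named genes and 1246 probe sets in all. Igfbp4 had 3 probe sets and the other genes 1 each, and the probe set with the highest mean over the 6 arrays stands for Igfbp4.

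Circulating IGF1 comes largely from hepatocytes, which make it under the control of growth hormone acting through Stat5. In plasma it travels bound to IGF-binding proteins, most of it in a complex of IGF1 with Igfbp3 or Igfbp5 and the acid-labile subunit, the product of Igfals. Igfbp1 is a short-lived binding protein of hepatocytes whose transcription insulin represses through FoxO factors, so that it is known for following the insulin supply over hours.

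The samples were liver RNA from 3 diabetic male mice, which the study describes as insulin-deficient, and from 3 healthy wildtype male mice, hybridised 1 sample per array to an Affymetrix array of genes tied to glycans. Values are log2 expression values made by the authors with robust multi-array averaging (RMA), and a difference of 1 is a doubling. The sources used here do not give strain, age, feeding state or the way insulin deficiency was brought about, nor whether each array holds a separate mouse. If it does not, the p-values and confidence intervals measure only the spread between these samples.

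Array medians lay between 4.93 and 5.06. Apart from Igf1 and Igfals, which were also listed as hepatocyte markers, 5 of 11 such markers were measured (Asgr1, Asgr2, Fgfr4, Mbl1 and Mbl2), and all 5 were brighter than the median probe set. Both groups carry the replicate numbers 1 to 3. Deviations of same-numbered arrays from their group means correlated at 0.397 for number 1, but only at 0.138 and 0.162 for numbers 2 and 3. Arrays of unlike number were not compared in this way. Because the numbers are shared, the differences that matter are also given number by number. In whole liver, fewer cells of a type and less RNA per cell cannot be told apart. The number of arrays limits the precision, and levels of different probe sets are not comparable with each other.

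None of the 9 genes passed the limma test (0 of 9 at an adjusted p under 0.05), where 0.321% of all probe sets did. The mean was higher in diabetic liver for 4 genes and lower for 5, with a median difference of -0.11 on the log2 scale over the 9, against 0.00 over all 1246 probe sets. At an unadjusted p under 0.05 stood 1 of the 9, Igfals, against 2.97% of all probe sets. The 3 largest differences were 2.74 for Igfbp1, 0.76 for Igfbp5 and -0.61 for Igfals, which ranked 1, 13 and 21 by size among the 1246. These genes also varied more within groups than most of the array: the median within-group SD was 0.42 for the 9, against 0.14 over all probe sets and 0.20 over the 623 brighter than the median.

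**Figure D1:**
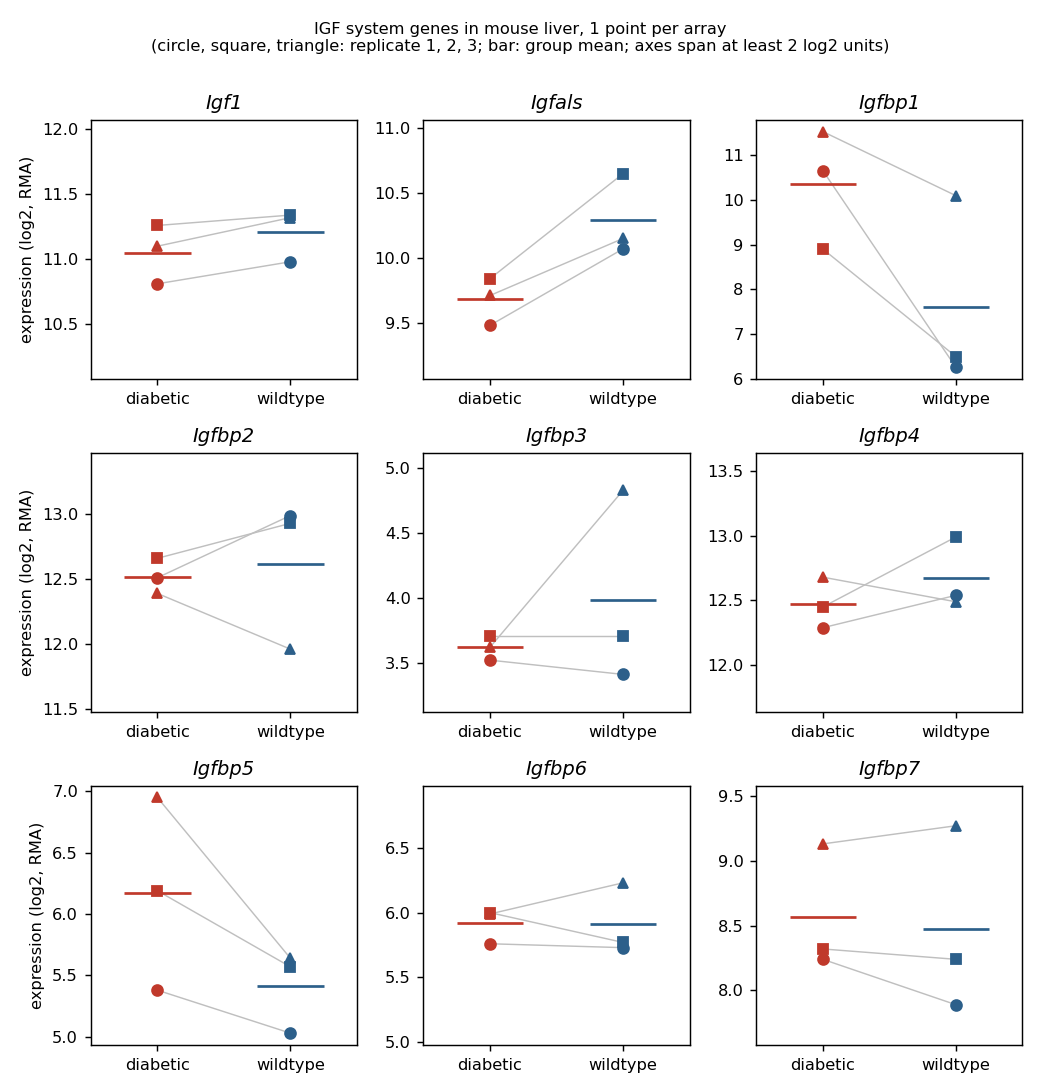
Expression (log2, RMA) of the 9 genes on each array, diabetic left and wildtype right in each panel, with grey lines joining arrays of the same replicate number and bars at the group means. Igfals is the gene whose groups do not overlap; for Igfbp1, wildtype 3 at 10.09 lies among the diabetic arrays.

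Igfals encodes the acid-labile subunit, which keeps the IGF complex in the circulation. It stood at 9.48, 9.84 and 9.71 on diabetic arrays 1 to 3, against 10.07, 10.65 and 10.15 on wildtype arrays 1 to 3. Every diabetic array lay below every wildtype array. A lower diabetic group with no overlap was seen for this 1 gene of 9, and for 3.29% of all probe sets; in either direction it was 1 of 9 against 7.87%.

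Igfals averaged 9.68 ± 0.18 in diabetic livers and 10.29 ± 0.32 in wildtype livers (SD, n = 3 each). The difference was -0.61 on the log2 scale (SE 0.18, 95% confidence interval -1.04 to -0.18), or 0.655 times the wildtype level, with a limma adjusted p of 0.928. By replicate number it was -0.59, -0.81 and -0.44, so all 3 comparisons of same-numbered arrays ran the same way. With the number as a block the interval narrowed to -0.89 to -0.33 and the limma adjusted p was 0.439. Wildtype 2 was the highest array of Igfals, and without it the difference was -0.43.

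Igf1 itself, the ligand, differed far less. It stood at 10.81, 11.26 and 11.10 on the diabetic arrays, against 10.98, 11.34 and 11.32 on the wildtype arrays. The groups overlapped, and the array numbered 1 was the lowest of its group in both. Each diabetic array was nonetheless below the wildtype array of its number, with differences of -0.17, -0.08 and -0.22 on the log2 scale.

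Igf1 averaged 11.05 ± 0.23 in diabetic livers and 11.21 ± 0.20 in wildtype livers (SD, n = 3 each). They differed by -0.16 (SE 0.15), with a 95% confidence interval of -0.53 to 0.21 and a limma adjusted p of 0.942. The interval covers ratios of diabetic to wildtype from 0.692 to 1.16. A fall of Igf1 to 0.5 of the wildtype level lies outside it, as far as these arrays stand for separate mice. Blocking on the number gave an interval of -0.37 to 0.05 (limma adjusted p = 0.822). Without diabetic 1 the difference was -0.034, and without wildtype 1 it was -0.28.

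The liver genes Igf1 and Igfals are known targets of Stat5, whose dimers bind the letters TTCNNNGAA. A search of the RefSeq promoter windows (GRCm38.p6, 250 bases before to 50 after each start site, both strands, N any base) found these letters in 2 of the 12 windows of the 9 genes and in 8.30% of all 32851 windows. Both windows belong to Igfals, at 2 of its start sites. Letters outside the windows were not searched, so the search cannot show whether Igf1 or another gene has such letters elsewhere. Stretches of the Igfals windows are shown because Igfals is the gene whose groups did not overlap, with the matched letters in capitals. The first lies at chr17:24877594-24877646 and the second at chr17:24878143-24878211, both on the plus strand. The match starts 236 bases before a start site in the first sequence and 58 bases before another start site in the second.
Igfals window 1: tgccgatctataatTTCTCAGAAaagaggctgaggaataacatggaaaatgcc
Igfals window 2: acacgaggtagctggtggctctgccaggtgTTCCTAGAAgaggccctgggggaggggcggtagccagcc
The forkhead letters TGTTTAC stood in 1 further place, elsewhere in the window that holds the second sequence, and in 3.65% of all windows. A match of letters does not show that a factor binds there.

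Igfbp1, the binding protein that insulin represses, had both the largest difference and the largest within-group SD (1.79) of all 1246 probe sets. Its values were 10.65, 8.90 and 11.52 on the diabetic arrays, against 6.26, 6.50 and 10.09 on the wildtype arrays. Wildtype 1 and 2 were far below all diabetic arrays, whereas wildtype 3 was above diabetic 2, so the groups overlapped. Same-numbered arrays differed by 4.40, 2.40 and 1.43, with the diabetic array higher each time.

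Igfbp1 averaged 10.36 ± 1.33 in diabetic livers and 7.61 ± 2.14 in wildtype livers (SD, n = 3 each). The difference of 2.74 (SE 1.15) is a ratio of 6.70, with a 95% confidence interval of 0.981 to 45.7, and did not pass (limma adjusted p = 0.928). Without wildtype 3 the difference was 3.98 (limma adjusted p = 0.293), and without wildtype 1 it was 2.06, the lowest value with 1 array left out. With the replicate number as a block the interval on the log2 scale was 1.12 to 4.37, with a limma adjusted p of 0.822.

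The Igfbp1 promoter is shown because insulin acts on this gene through an element next to its start site, which holds the letters CAAAACA. The window is chr11:7197537-7197836 of GRCm38.p6 on the plus strand, 300 bases. Capitals mark CAAAACA, from base -108 to -102 relative to the start site, and ATTAAC, from -56 to -51, which is GTTAAT on the opposite strand, the half-site of the liver factor Hnf1.
Igfbp1 promoter: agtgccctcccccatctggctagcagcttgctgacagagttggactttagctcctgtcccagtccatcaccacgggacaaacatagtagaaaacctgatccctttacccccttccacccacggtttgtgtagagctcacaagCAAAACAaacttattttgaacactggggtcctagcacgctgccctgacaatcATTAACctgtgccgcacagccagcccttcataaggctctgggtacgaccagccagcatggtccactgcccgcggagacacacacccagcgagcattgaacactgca
Of the 12 windows of the 9 genes, 1 held CAAAACA on either strand and 1 held GTTAAT, in each case that of Igfbp1. Over all windows the shares were 6.28% and 7.10%.

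Igfbp2, a binding protein that hepatocytes secrete, stood at 12.51, 12.66 and 12.39 in diabetic livers, against 12.99, 12.93 and 11.96 in wildtype livers. The diabetic arrays lay between the wildtype arrays: wildtype 1 and 2 were above all of them and wildtype 3 below. Diabetic livers averaged 12.52 ± 0.14 and wildtype livers 12.62 ± 0.58 (SD, n = 3 each). They differed by -0.11, with a 95% confidence interval of -0.78 to 0.56 and a limma adjusted p of 0.990. Without wildtype 3 it was -0.44, and without wildtype 1 or wildtype 2 it turned to 0.075 and 0.045. Wildtype 3 was thus at the opposite end of its group for Igfbp2 (lowest) and for Igfbp1 (highest).

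Igfbp4, which binds IGFs outside the large plasma complex and is cleaved by the protease PAPP-A, stood at 12.29, 12.45 and 12.68 in diabetic livers, against 12.54, 12.99 and 12.49 in wildtype livers. The groups overlapped, and wildtype 2 was the highest array. The difference was -0.20 (95% confidence interval -0.60 to 0.20; limma adjusted p = 0.928) and -0.040 without wildtype 2. The other probe sets of Igfbp4 gave -0.22 and -0.27. Suffixes of 2 of the 3 Igfbp4 probe sets, the main one included, mark possible cross-hybridisation; the probe set without such a mark gave -0.27.

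**Figure D2:**
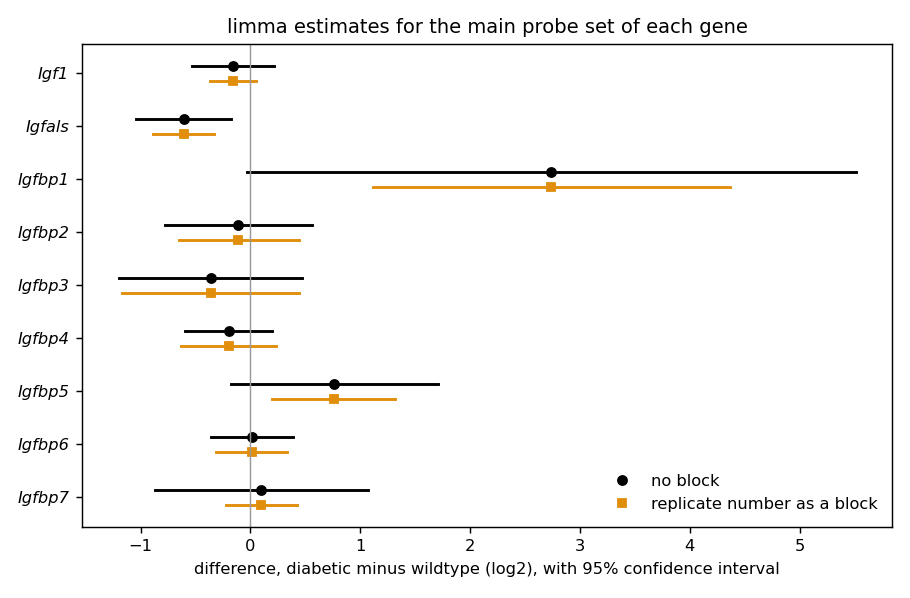
Difference of each gene, diabetic minus wildtype (log2), with the 95% confidence interval from limma without a block (black circles) and with the replicate number as a block (orange squares). The interval of Igfals excludes 0 in both fits, and those of Igfbp1 and Igfbp5 exclude it with the block; none passed after adjustment over 1246 probe sets.

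Igfbp3, the main carrier of plasma IGF1, is known in rodent liver as a product of non-parenchymal cells. Its probe set was dim, at the 22.8 percentile of probe-set means, and no detection call was used, so values there cannot be separated from background. It stood at 3.52, 3.71 and 3.62 in diabetic livers, against 3.41, 3.71 and 4.83 in wildtype livers. Wildtype 3 alone stood above the rest. The groups differed by -0.36, with a 95% confidence interval of -1.20 to 0.47 and a limma adjusted p of 0.942, but by 0.057 without wildtype 3.

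Igfbp5, which can also enter the large plasma complex and binds extracellular matrix and heparin, stood at 5.38, 6.19 and 6.95 in diabetic livers, against 5.03, 5.57 and 5.64 in wildtype livers. Its probe set was at the 63.8 percentile of probe-set means, with wildtype 1 close to the array medians, and no detection call was used. Diabetic 2 and 3 were above all wildtype arrays, and diabetic 1 lay within the wildtype range. Each diabetic array was above the wildtype array of its number, by 0.35, 0.62 and 1.31. Igfbp5 averaged 6.17 ± 0.78 in diabetic livers and 5.41 ± 0.33 in wildtype livers (SD, n = 3 each), and the difference of 0.76 (SE 0.39, 95% confidence interval -0.18 to 1.71) did not pass (limma adjusted p = 0.928). It was 0.38 without diabetic 3 and 1.16 without diabetic 1, and with the block its interval was 0.20 to 1.32 (limma adjusted p = 0.822).

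Igfbp6, which prefers IGF2 as its ligand, stood at 5.76, 6.0 and 5.99 in diabetic livers, against 5.73, 5.77 and 6.23 in wildtype livers. Wildtype 3 was the highest array, and the difference was 0.011 (95% confidence interval -0.36 to 0.39; limma adjusted p = 0.990). The Igfbp6 probe set was at the 65.8 percentile of probe-set means, again without a detection call.

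Igfbp7, which binds IGFs weakly and is known from vascular and stromal cells, stood at 8.24, 8.32 and 9.13 in diabetic livers, against 7.89, 8.24 and 9.27 in wildtype livers. The arrays numbered 3 were the highest of both groups. The difference was 0.099 (95% confidence interval -0.87 to 1.07; limma adjusted p = 0.990), and it ran from -0.19 without wildtype 1 to 0.50 without wildtype 3. With the number as a block the interval narrowed to -0.22 to 0.42. The only probe set of Igfbp7 also has a suffix that marks possible cross-hybridisation.

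The macrophage, stellate cell and endothelial marker lists were also highest on the arrays numbered 3 in both groups, and none of the other marker lists was. For the endothelial list the lead in wildtype livers was slight, with mean log2 levels of 5.08 on wildtype 2 and 5.1 on wildtype 3, near the array medians. The mean log2 level of the 6 macrophage markers measured, of 11 listed, was 5.59, 5.74 and 6.36 on diabetic arrays 1 to 3, against 5.74, 5.77 and 6.17 on wildtype arrays 1 to 3. Their summed linear level ranged from 363 to 627 array units in diabetic and from 411 to 611 in wildtype livers, and 4 of the 6 (Csf1r, Mrc1, Cd74 and Clec4f) were brighter than the median probe set.
For stellate cells and fibroblasts, 5 of 10 markers were measured, with mean log2 levels of 5.07, 5.25 and 5.38 in diabetic livers, against 5.26, 5.08 and 5.70 in wildtype livers. Their summed linear level ranged from 282 to 391 array units in diabetic and from 276 to 540 in wildtype livers, and 3 of the 5 (Bgn, Dcn and Pdgfrb) were brighter than the median. The 4 endothelial markers measured, of 11 listed, summed to 149, 162 and 185 array units in diabetic livers, against 167, 190 and 192 in wildtype livers. Pecam1, Icam2 and Selp were the brighter ones. The 4 lymphocyte markers measured summed to 112, 132 and 126 array units in diabetic livers, against 115, 130 and 134 in wildtype livers. The 1 cholangiocyte marker measured, Muc1, stood at 31, 39 and 37 array units in diabetic livers, against 32, 39 and 35 in wildtype livers, highest on number 2 in both. The 5 markers of exocrine pancreas and intestine summed to 326, 269 and 577 array units in diabetic livers, against 316, 501 and 301 in wildtype livers, so wildtype 2, where Igf1, Igfals and Igfbp4 were highest, was also high for these, as was diabetic 3. The 5 hepatocyte markers other than Igf1 and Igfals summed to 12473, 12650 and 12488 array units in diabetic livers, against 8912, 10435 and 10186 in wildtype livers. All diabetic arrays were above all wildtype arrays in these sums. For single probe sets, which are not the same measure as a sum of 5, this held for 57 of 1246. These sums weigh the brightest markers most and include Mbl1, whose values were among those most like Igfbp1. The mean log2 levels of the 5 were 10.56, 10.53 and 10.5 in diabetic livers, against 10.19, 10.44 and 10.18 in wildtype livers, a narrower gap. With Igf1 and Igfals included the sums were 14979, 16015 and 15521 in diabetic livers, against 12003, 14629 and 13883 in wildtype livers. The mean log2 levels of all 7 overlapped, at 10.44, 10.54 and 10.47 in diabetic livers, against 10.29, 10.6 and 10.34 in wildtype livers. The separation of the groups for hepatocyte markers thus depended on the measure and on the markers included. The part of these cells in the levels of the 9 genes was not tested. RMA values have no 0, so no marker was at 0.

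Some of the 9 genes had their extremes on the same arrays. Wildtype 2 was the highest of the 6 arrays for 3 genes (Igf1, Igfals and Igfbp4), and diabetic 1 was the lowest for the same 3. Over all probe sets, wildtype 2 was highest for 25.3% and diabetic 1 lowest for 19.8%, so these counts lie near the shares of the whole array. Diabetic 3 was highest for 2 genes (Igfbp1 and Igfbp5), against 20.3% of all probe sets, and wildtype 1 for 1 (Igfbp2), against 13.5%. Wildtype 3 was highest for 3 others (Igfbp3, Igfbp6 and Igfbp7), also against 13.5%, and lowest for 1 (Igfbp2), against 22.2%. Wildtype 1 was the lowest array for 5 genes, namely Igfbp1, Igfbp3, Igfbp5, Igfbp6 and Igfbp7, against 15.9% of all probe sets.

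Comparing arrays of the same number, 4 of the 9 genes ran the same way in all 3 comparisons, Igfbp1 and Igfbp5 with the diabetic array higher and Igf1 and Igfals with it lower, where 25.8% of all probe sets ran one way throughout. With the number as a block, 3 of the 9 (Igfals, Igfbp1 and Igfbp5) had an unadjusted p under 0.05, against 4.33% of all probe sets, and 0 passed after adjustment. What links arrays of 1 number is not stated in the labels.

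**Figure D3:**
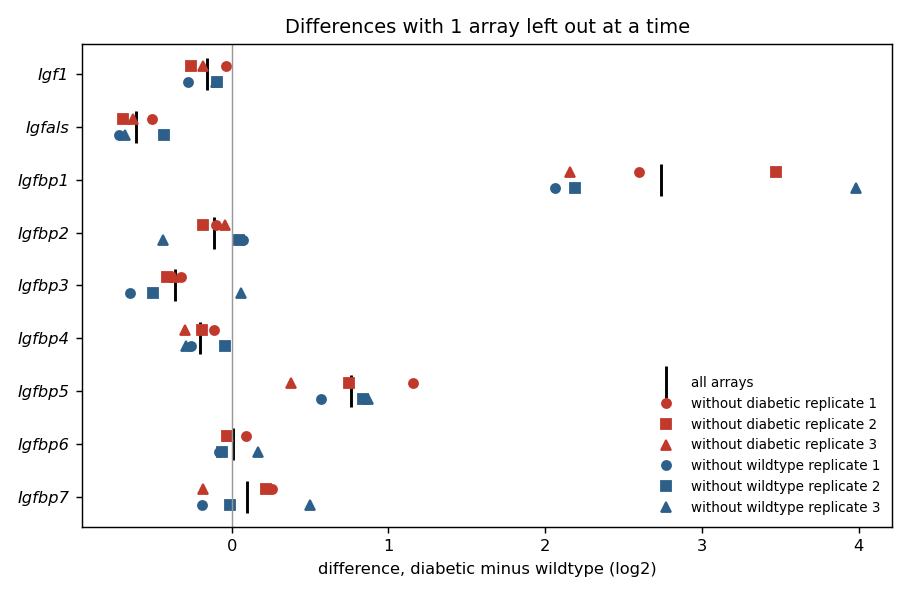
Difference of each gene, diabetic minus wildtype (log2), over all arrays (black bar) and with 1 array left out (red, a diabetic array; blue, a wildtype array). Igfbp1 stays between 2.06 and 3.98 and Igfals between -0.72 and -0.43, while Igfbp2, Igfbp3, Igfbp6 and Igfbp7 fall on both sides of 0.

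Of 37 other genes listed for growth hormone, IGF and insulin signalling, 4 were measured, and 0 of these 4 passed limma's test or had an unadjusted p under 0.05. Igf2, the fetal ligand, stood at 5.76, 5.94 and 6.45 in diabetic livers, against 5.72, 5.89 and 5.63 in wildtype livers. Diabetic 3 stood above the rest, and the difference was 0.31 (95% confidence interval -0.14 to 0.75; limma adjusted p = 0.928). The Igf2 probe set was at the 65.6 percentile of probe-set means, and no detection call was used. Igf2r, the receptor that takes IGF2 to lysosomes and also carries mannose 6-phosphate enzymes, differed by -0.07 (95% confidence interval -0.49 to 0.36). Igf1r, the signalling receptor, is known to be scarce on adult hepatocytes; its probe set was dim, at the 23.6 percentile of probe-set means, and differed by -0.04. Igfbpl1, a relative of the binding proteins, differed by 0.07. The growth hormone receptor, the insulin receptor and their signalling genes were not analysed here.

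Among the 508 other named genes brighter than the median, those whose values over the 6 arrays were most like Igfbp1 were Angptl4 (Pearson r = 0.987), Mbl1 (r = 0.982) and Aga (r = 0.944). Angptl4, a secreted inhibitor of lipoprotein lipase known to rise on fasting, stood at 10.57, 9.67 and 10.59 in diabetic livers, against 8.72, 8.81 and 10.41 in wildtype livers. From highest to lowest the 6 arrays had the same order as for Igfbp1: diabetic 3, diabetic 1, wildtype 3, diabetic 2, wildtype 2 and wildtype 1. Mbl1, a mannose-binding lectin of hepatocytes, was 10.63, 10.51 and 10.64 in diabetic livers, against 10.19, 10.24 and 10.54 in wildtype livers, the same order again over a much smaller range. Fgf21, another gene known to respond to fasting, did not show this order: it was 5.38, 5.09 and 5.41 in diabetic livers, against 5.20, 5.36 and 5.41 in wildtype livers. Its probe set was close to the median, at the 55.6 percentile of probe-set means. No detection call was used, so these values cannot show whether the Fgf21 transcript followed Igfbp1. Of 15 genes listed as known to respond to insulin or fasting in liver, 5 were measured, Igfbp1 among them, and 0 passed. The others were Angptl4, Fgf21, the fructokinase gene Khk (a log2 difference of 0.37, 95% confidence interval -0.01 to 0.74) and Ugp2, which makes UDP-glucose (0.77, 0.37 to 1.17; limma adjusted p = 0.619). The part of feeding state, which the labels do not record, was not tested.

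Most like Igfals were Fgf3 (r = 0.952), Hes6 (r = 0.942) and Selp (r = 0.932). Fgf3 ran only from 4.96 to 5.02 in diabetic and from 5.1 to 5.16 in wildtype livers, close to the median probe set. Hes6, a transcription factor gene, stood at 8.61, 9.11 and 8.51 in diabetic livers, against 9.39, 9.87 and 9.48 in wildtype livers, again with no overlap and with wildtype 2 highest. Most like Igf1 were Bmp4 (r = 0.981), Galnt17 (r = 0.955) and Galnt15 (r = 0.933). Bmp4 ran from 4.94 to 5.40 in diabetic and from 5.13 to 5.48 in wildtype livers, close to the median probe set. These correlations are the highest of 508 over 6 shared arrays, which also share the group difference and the replicate numbers, and they are given as a description.

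**Figure D4:**
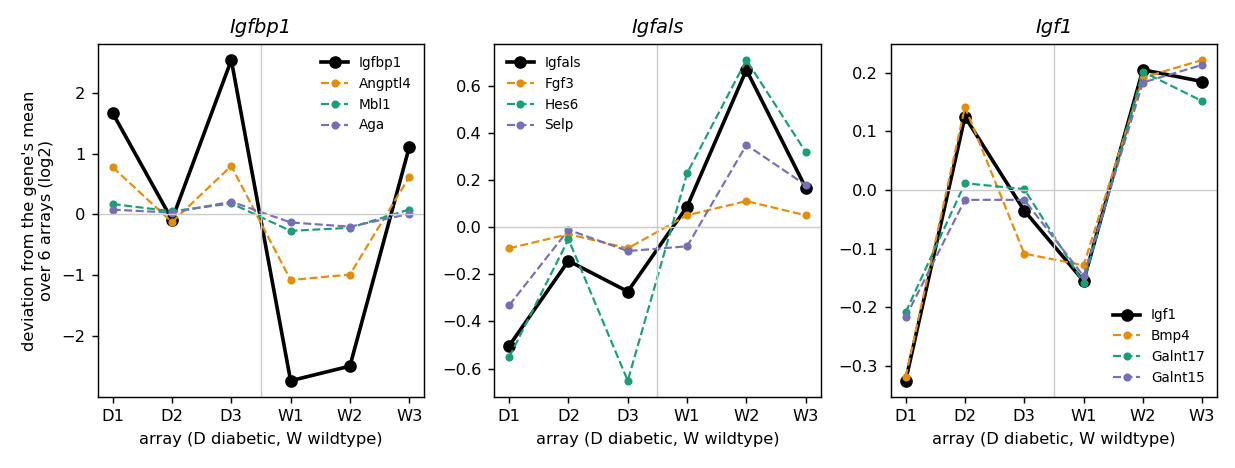
Deviation of each gene from its own mean over the 6 arrays (log2) for Igfbp1, Igfals and Igf1 (black) and the 3 genes most like each (dashed), with diabetic arrays left of the grey line and wildtype arrays right. Angptl4 repeats the order of Igfbp1 closely, wildtype 3 included, and Hes6 follows Igfals with a deeper low on diabetic 3.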

How the data were processed

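Liver RNA of 3 diabetic and 3 wildtype male mice was measured on 1 array per sample. Per the submitters' processing notes the authors used RMA, with version and settings not given in the sources used; the deposited values (2.03 to 13.45) were taken as log2 expression values. RMA normalizes between arrays, so a shift common to most of the array cannot be seen. Of 1246 probe sets, 984 carried a RefSeq accession and 963 were named through a RefSeq table (GRCm38.p6), giving 909 genes. Promoter windows are RefSeq's; all 9 genes matched.

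Groups were compared over all probe sets with limma 3.58.1 (R 4.3.3; lmFit, eBayes), with Benjamini-Hochberg adjustment over all 1246 and a threshold of 0.05; it was tested on simulated data. Alternatives were a median shift, quantile normalization, leaving out dim probe sets, eBayes with trend and robust, array weights, the replicate block, an ordinary linear model, a threshold of 0.10, other probe sets and leaving out each array. The block was planned because both groups carry the same replicate numbers. Same-numbered arrays' deviations from group means correlated at 0.397, 0.138 and 0.162.

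The genes, lists and tests were chosen with earlier results of these data known. Genes named were all 9, the measured pathway genes, listed insulin and fasting genes, and the 3 genes with the highest Pearson r to Igf1, Igfals and Igfbp1 each. Genes outside these lists are named only as markers.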

Additional observations from a re-analysis of the deposited data

How the results depend on the processing

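All of the 9 genes stayed uncalled under every alternative run. Of 109 recomputed differences, 97 kept their direction and 12 reversed. The replicate block, the trend and robust setting and leaving out dim probe sets cannot move a difference. Their differences are therefore among the 97 by construction. Igf1, Igfals, Igfbp1, Igfbp4 and Igfbp5 kept their direction throughout. Quantile normalization turned Igfbp2 to 0.0086 and Igfbp6 to -0.00059. With 1 array left out, the differences ran from -0.28 to -0.034 for Igf1, -0.72 to -0.43 for Igfals, 2.06 to 3.98 for Igfbp1, -0.44 to 0.075 for Igfbp2, -0.65 to 0.057 for Igfbp3, -0.30 to -0.040 for Igfbp4, 0.38 to 1.16 for Igfbp5, -0.078 to 0.17 for Igfbp6 and -0.19 to 0.50 for Igfbp7; beyond the smaller number of arrays, the cause of the reversals was not tested. The limma adjusted p ran from 0.439 to 0.995 for Igfals and from 0.293 to 0.995 for Igfbp1. Over all probe sets, 4 were called, against 0 each with the replicate block, the trend and robust setting and an ordinary linear model, and between 0 and 1 with 1 array left out; the cause was not tested. The block cannot move a difference here, since each number occurs once per group, and it changed no call among the 9. Igfbp3 has no value without the dim probe sets, since it is one of them. The linear-intensity alternative was not run, because the values are on a log scale. No detection call was used, so signal was not separated from background for any gene, which matters most for the dim Igfbp3.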
